A study of Mus musculus with 6 samples.

Results

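The HOX genes are a family of homeodomain transcription factors that lie in 4 clusters in the mouse genome. Members were taken by name, as genes called Hoxa, Hoxb, Hoxc or Hoxd followed by digits only, in 10 tables of promoter regions and 6 peak lists. The RefSeq annotation holds 39 such genes, 11 in the HOXA cluster, 10 in HOXB, 9 in HOXC and 9 in HOXD. Of these, 24 appeared in the files, 22 in the promoter tables and 5 in the peak lists, 3 of them in both, out of 16282 genes in any table or list.

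The study followed DNA methylation during the conversion of fibroblasts into neurons by methylated DNA immunoprecipitation sequencing (MeDIP-seq), in which an antibody against methylated cytosine pulls down DNA fragments that are then sequenced. Induced neurons derived from mouse embryonic fibroblasts were sampled at 1, 3, 5 and 7 dpi, a time unit the labels do not spell out. The positive control was neurons taken from hippocampi of pups aged 1 day (primary neurons), and the negative control was fibroblasts of E13.5 embryos (MEF). All cells came from ICR mice and carry the label of 3-5 passages. What agent converted the cells, and whether animals were pooled, is not stated in the sources used here. The files hold no expression values, so the labelled cell types could not be checked against marker genes.

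Each group has 1 library. No difference below has a replicate check, and a p or q compares the reads of 2 libraries, not the conditions. All 5 comparisons use the same MEF library, so a value of that library recurs in each of them. The promoter tables list the regions within 2 kb of a start site that passed the authors' test, and give no value for a promoter that was not listed. Values are reads in the region. In the 7 dpi and primary neuron comparisons the authors scaled them, and the reads named here are the whole reads behind the scaled values. A fold written as at least was set against a floor of 3 reads where the lower library had 0.

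HOX proteins give cells of the embryo their position along the head-to-tail axis. Genes at one end of each cluster (low numbers) act in anterior parts such as the hindbrain, and those at the other end (high numbers) in posterior parts, limbs and tail. Cultured fibroblasts are known to keep a HOX expression pattern of the body site they came from, whereas the hippocampus is part of the forebrain, where HOX genes are largely silent. Silent HOX clusters are known to be held by Polycomb proteins, and their promoters are often rich in CpG and poor in DNA methylation.

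Across the HOX clusters, 22 of the 39 genes (56.4%) had a listed region in at least 1 comparison, against 43.5% of the 26220 genes with a curated RefSeq transcript. Regions higher than MEF were listed for 19 HOX genes (48.7%, against 33.6% of all genes) and regions lower than MEF for 8 (20.5%, against 17.6%). Of the 22, 14 were listed as higher only, 3 as lower only and 5 as both (12.8%, against 7.67% of all genes). The 2 directions differed in how far they recurred, in HOX genes as in all genes. The 8 lower genes were each listed in 2 to 5 comparisons, whereas 15 of the 19 higher genes were listed in 1 comparison and the other 4 in 2. In 4 or more comparisons no HOX gene was higher (0 of 39, against 0.542% of all genes) and 4 were lower (10.3%, against 8.65%).

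**Figure D1:**
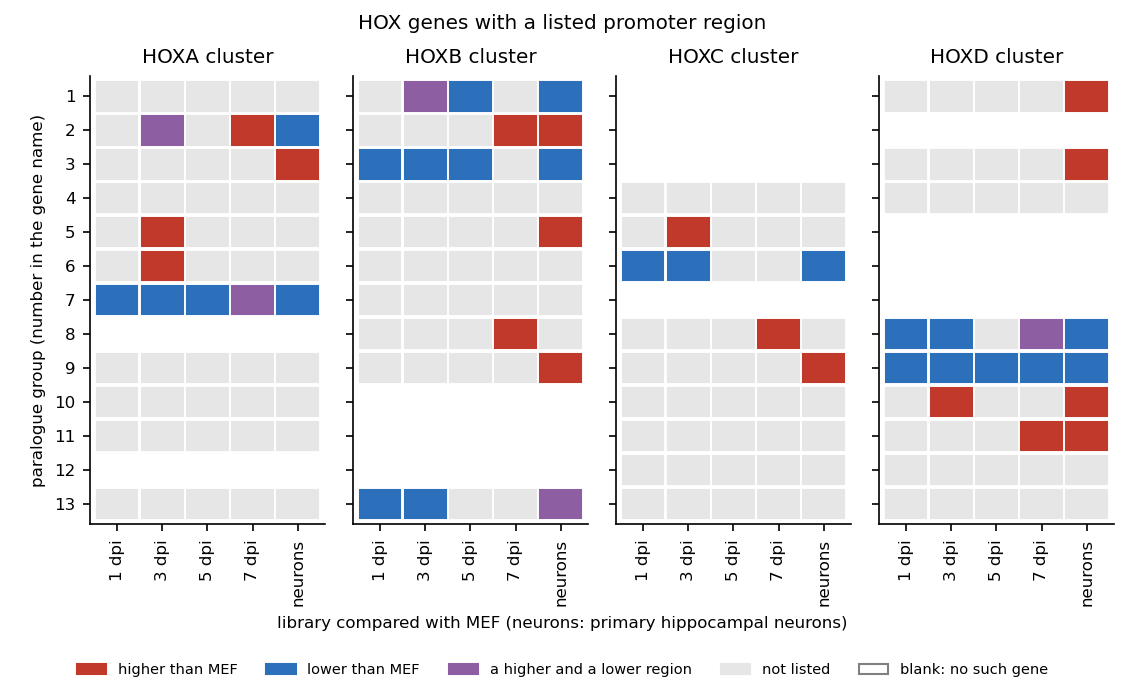
HOX genes by cluster (panels) and paralogue group (rows, the number in the gene name), with 1 column for each library compared with MEF. Red marks a gene with a region higher than MEF, blue a lower one, purple both and grey neither. Hoxa7 and Hoxd9 are listed as lower in all 5 columns, and the red cells lie at 3 dpi, 7 dpi and in primary neurons.

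Higher regions were listed for 0 of 39 HOX genes at 1 dpi and 0 at 5 dpi, where 1.77% and 3.85% of all genes were listed as higher. Primary neurons had 10 higher HOX genes (25.6%, against 20.4% of all genes), the 7 dpi library had 7 (17.9%, against 12.4%) and the 3 dpi library had 6 (15.4%, against 5.23%). Lower regions were listed for 6 HOX genes at 1 dpi (15.4%, against 10.6% of all genes), 8 at 3 dpi (20.5%, against 13.2%), 4 at 5 dpi (10.3%, against 10.7%), 3 at 7 dpi (7.69%, against 8.87%) and 8 in primary neurons (20.5%, against 15.3%). Most of these shares lie near those of all genes. Among the nonzero counts, the largest ratio to the share of all genes was that of the higher genes at 3 dpi. With a deposited p of at most 1e-05, 2 of those 6 genes were left (5.13%, against 1.1% of all genes), and with at least 13 reads 2 as well (5.13%, against 2.35%). Without regions of 380 bp, the most common width, 4 were left (10.3%, against 4.82%).

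**Figure D2:**
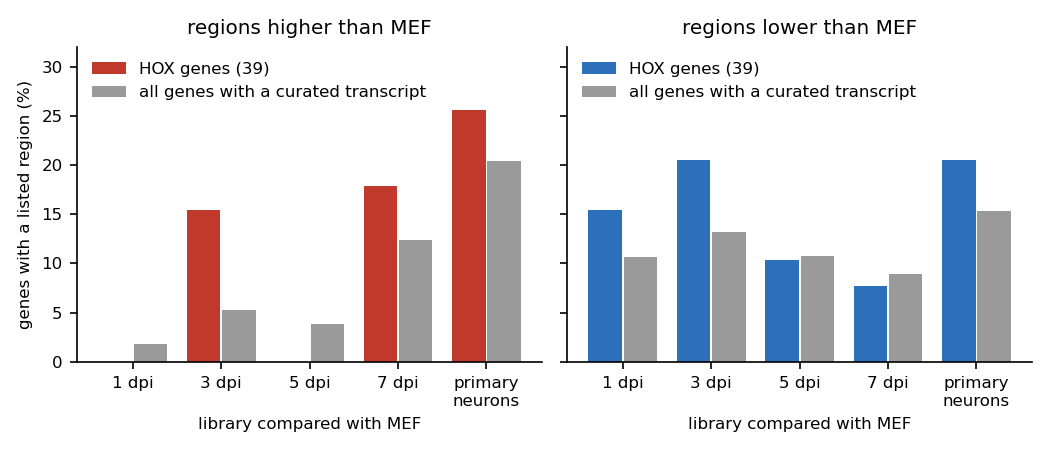
Share of genes (percent, y axis) with a listed promoter region in each comparison with MEF, for the 39 HOX genes (coloured bars, left) and all 26220 genes with a curated transcript (grey bars, right); regions higher than MEF are in the left panel and lower ones in the right. At 3 dpi 15.4% of HOX genes and 5.23% of all genes had a higher region.

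By cluster, 5 of 11 HOXA, 7 of 10 HOXB, 4 of 9 HOXC and 6 of 9 HOXD genes were listed at all. The share of all genes was 43.5%. At 3 dpi 3 of the 6 higher genes were in HOXA (Hoxa2, Hoxa5 and Hoxa6), with 1 in each other cluster (Hoxb1, Hoxc5 and Hoxd10). At 7 dpi the higher genes were 2 in HOXA, 2 in HOXB, 1 in HOXC and 2 in HOXD. In primary neurons 4 of the 10 were in HOXB (Hoxb2, Hoxb5, Hoxb9 and Hoxb13) and 4 in HOXD (Hoxd1, Hoxd3, Hoxd10 and Hoxd11), with 1 in HOXA (Hoxa3) and 1 in HOXC (Hoxc9). The lower genes were 2 in HOXA, 3 in HOXB, 1 in HOXC and 2 in HOXD over all comparisons.

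By position, listed genes were more frequent toward the anterior end. Of the anterior genes (paralogue groups 1 to 3) 7 of 8 (87.5%) were listed at all, against 43.5% of all genes. For central genes (groups 4 to 8) the share was 9 of 15 (60%). For posterior genes (groups 9 to 13) it was 6 of 16 (37.5%). In HOXA none of Hoxa9, Hoxa10, Hoxa11 and Hoxa13 was listed, and in HOXC none of Hoxc10 to Hoxc13. The order depended on the comparison. In primary neurons 4 of 8 anterior, 1 of 15 central and 5 of 16 posterior genes were higher, against 20.4% of all genes. At 7 dpi 2 anterior, 4 central and 1 posterior gene were higher, against 12.4% of all genes. These counts rest on few genes and were not tested.

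The lower regions fell on 8 distinct loci, 1 per gene, and the 2 listed as lower in every comparison are Hoxa7 and Hoxd9. For Hoxd9 and its neighbour Hoxd8 the listed region, at its widest, covers most of the RefSeq promoter window, which runs from 250 bases before to 50 bases after the start. Both windows are printed because the reads turn on them, from RefSeq, build GRCm38.p6, plus strand, 5′ to 3′, with every CpG, the dinucleotide that carries DNA methylation in mammals, in capitals. The Hoxd9 window is chr2:74697513-74697812 and the Hoxd8 window chr2:74704365-74704664.
Hoxd9: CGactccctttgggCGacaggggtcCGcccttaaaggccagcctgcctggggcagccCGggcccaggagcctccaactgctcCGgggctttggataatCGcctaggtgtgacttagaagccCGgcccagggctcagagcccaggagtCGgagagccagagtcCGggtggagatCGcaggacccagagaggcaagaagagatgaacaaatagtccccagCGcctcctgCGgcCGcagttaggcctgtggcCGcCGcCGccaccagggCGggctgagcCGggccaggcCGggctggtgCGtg
Hoxd8: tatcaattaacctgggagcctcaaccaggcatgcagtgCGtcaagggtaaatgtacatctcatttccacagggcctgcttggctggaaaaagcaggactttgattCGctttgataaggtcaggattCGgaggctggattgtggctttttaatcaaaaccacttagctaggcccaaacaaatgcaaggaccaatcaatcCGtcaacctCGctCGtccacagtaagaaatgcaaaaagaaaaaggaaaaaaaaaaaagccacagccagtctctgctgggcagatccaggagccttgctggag

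The motif searched was CG, which reads the same on both strands. The Hoxd9 window holds 20, of which 17 lie in the 268 bases shared with the listed region, and 26.5% of the 32851 RefSeq promoter windows hold as many. The Hoxd8 window holds 6, all of them in the 276 bases shared with the listed region, and 56.4% of windows hold as many. At least 1 CG is found in 94.6% of windows.

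Hoxd9, a posterior gene that acts in the limbs and lumbar spine, had 0 reads at 1 dpi against 13 in MEF, and 0 at 3 dpi against 13. Primary neurons had 0 against 15 in MEF, and so did the libraries of 5 and 7 dpi. The region lies on chromosome 2, 74697441 to 74697780 at its widest, and spans the start. It was 200 bp wide at 1 and 3 dpi and 320 or 340 bp wide in the other comparisons. All 5 libraries were thus without a read where MEF had 13 to 15, which is at least 3.75-fold (7 dpi) to 5.36-fold (primary neurons) lower on the deposited values. The q-values in the authors' deposited table ran from 0.000213 in primary neurons to 0.00186 at 1 dpi.

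Hoxa7, a central gene that patterns the thoracic spine, had 1 read at 1 dpi against 17 in MEF (17-fold lower, exact 95% counting interval 2.66 to 710). All later libraries and primary neurons had 0, against 18 in MEF, or 17 in the narrower region of the 7 dpi comparison. The region, chromosome 6, 52217661 to 52218040 at its widest, lies within the gene, 663 to 723 bp downstream of the start. Hoxa7 is also the gene with the most reads in the other direction. About 2 kb away, upstream of the start (chromosome 6, 52219781 to 52220340), the 7 dpi library had 29 reads against 0 in MEF, at least 12.9-fold higher (q of 1.07e-07 in the authors' deposited table). The same stretch holds a peak of the 7 dpi library.

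Hoxd8, a gene of the axial skeleton, had 0 reads in primary neurons and in the libraries of 1, 3 and 7 dpi, each against 15 in MEF. It was not listed at 5 dpi. The authors measured the region (chromosome 2, 74704321 to 74704640 at its widest) as 978 to 1008 bp upstream of a start at 74705488, but it spans the start of the RefSeq gene at 74704615. It also lies inside the RefSeq gene Gm38462. At 7 dpi an adjoining region on the far side (chromosome 2, 74703981 to 74704360) went the other way, with 22 reads against 3 in MEF, 9.77-fold higher on the scaled values (interval 2.94 to 51.0). The higher and the lower region overlap by 40 bp and together span 660 bp.

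**Figure D3:**
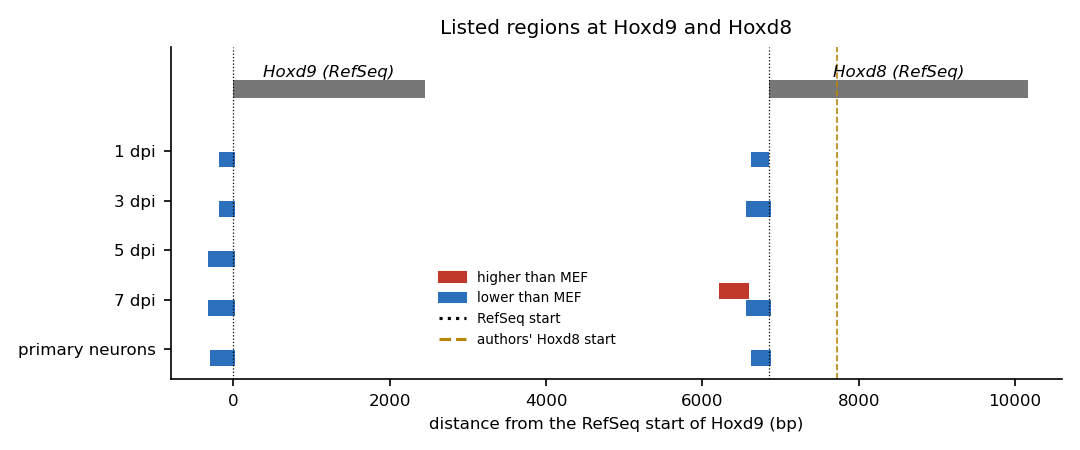
Listed regions at Hoxd9 and Hoxd8 in each comparison with MEF (rows), drawn to scale by distance from the RefSeq start of Hoxd9 (x axis, bp); red regions were higher and blue ones lower than MEF, and grey bars are the RefSeq genes. The blue regions end at or just past the RefSeq starts (dotted lines), and the authors' Hoxd8 start (dashed) lies downstream; at 7 dpi a red region adjoins the blue one at Hoxd8.

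Hoxb3, which acts in the hindbrain and in organs of the neck, had 0 reads in primary neurons and the libraries of 1, 3 and 5 dpi, each against 12 in MEF (at least 4.29-fold lower in primary neurons and 4-fold in the other 3). It was not listed at 7 dpi. The region, chromosome 11, 96343301 to 96343660, lies 288 to 338 bp upstream of the start used by the authors, inside the longer RefSeq gene model and the antisense transcript Hoxb3os. Hoxb13, the gene of the posterior end of the HOXB cluster with a role in the prostate, had 0 reads at 1 and 3 dpi and in primary neurons, each against 11 in MEF (at least 3.67-fold lower, and 3.93-fold in primary neurons). Its region, chromosome 11, 96193801 to 96194100, lies 390 to 410 bp upstream of the start. Hoxc6, a thoracic gene, had the same values in the same 3 libraries, at chromosome 15, 103010821 to 103011200, inside the gene. Hoxb1, which gives identity to a hindbrain segment, had 0 reads at 3 and 5 dpi and in primary neurons, each against 11 in MEF, at chromosome 11, 96366301 to 96366680, inside the gene.

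At these 3 genes the MEF library held 11 reads, the fewest of any region listed as lower at 1, 3 or 5 dpi or in primary neurons. At 7 dpi no listed lower region of the series had fewer than 13 MEF reads. Hoxb1, Hoxb13, Hoxc6 and Hoxb3 were all under that number, and none of the 4 was listed there. Hoxa2, a gene of the hindbrain and the face, had 0 reads at 3 dpi against 17 in MEF and 1 in primary neurons against 17 (18.1-fold lower on the scaled values, interval 2.85 to 761). The Hoxa2 region (chromosome 6, 52165161 to 52165540) lies 519 to 539 bp upstream of the start, between genes.

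**Figure D4:**
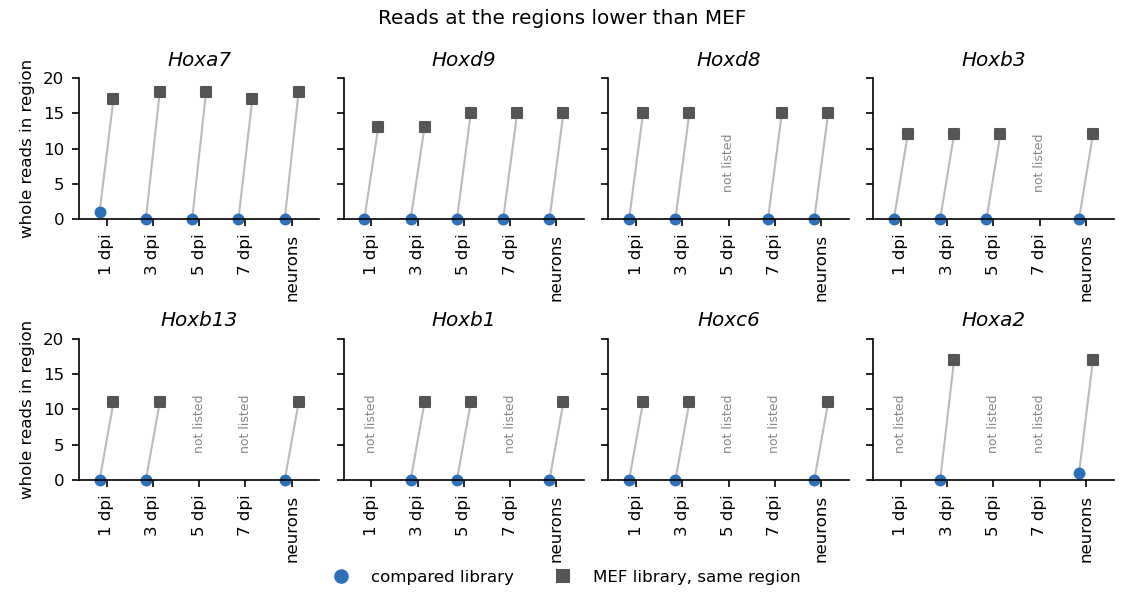
Whole reads (y axis) at the region lower than MEF of 8 HOX genes (panels), with the compared library as a blue circle and MEF as a grey square for each comparison (x axis); neurons are primary hippocampal neurons. The compared libraries sit at 0 or 1 read and MEF at 11 to 18, and the comparisons that did not list the region are marked.

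Being lower than MEF in at least 4 of the 5 comparisons was found for 4 HOX genes (Hoxa7, Hoxd9, Hoxd8 and Hoxb3), which is 10.3%, against 8.65% of all genes. The recurrence is therefore near that of all genes, and it rests on 1 MEF library. None of these 8 loci overlapped a peak of the MEF library, in which 0.195% of all genes had a promoter peak. The same share over all listed lower regions was not computed.

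The higher regions fell on 22 distinct loci of 19 genes. Only Hoxa2 was higher at overlapping positions in 2 comparisons: it had 11 reads at 3 dpi against 0 in MEF and 11 at 7 dpi against 0, within the gene 1251 to 1401 bp downstream of the start. Hoxb2, Hoxd10 and Hoxd11 were higher in 2 comparisons at separate loci. How often the higher regions of all genes overlap between comparisons was not computed. Hoxb2, a hindbrain gene, had 14 reads at 7 dpi against 0 in MEF at 1601 bp upstream, and 14 in primary neurons against 0 at a region spanning the start. Hoxd11, a gene of the forearm and kidney, had 11 reads at 7 dpi against 0 in MEF and 14 in primary neurons against 0, at loci 140 bp apart. Hoxd10, a gene of the hindlimb and lumbar spinal cord, had 11 reads at 3 dpi against 0 in MEF and 13 in primary neurons against 0.

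At 3 dpi the most reads were at Hoxa5, a gene of the lung and the neck spine, with 20 against 0 in MEF (at least 6.67-fold, q of 0.000116 in the authors' deposited table). Hoxa6 followed with 15 against 0. The other 4 genes at 3 dpi (Hoxa2, Hoxb1, Hoxc5 and Hoxd10) had 11 reads each, the fewest of any region listed there. Hoxa5 and Hoxa6 regions both lie within a RefSeq model of Hoxa3 and the antisense transcript Hoxaas3, so these positions belong to more than 1 gene model.

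At 7 dpi the higher genes after Hoxa7 and Hoxd8 were Hoxb2 with 14 reads, Hoxa2, Hoxb8 and Hoxd11 with 11 each and Hoxc8 with 10, all against 0 in MEF. In primary neurons Hoxd3, a gene of the first neck vertebra, had 27 reads against 0 in MEF (at least 8.40-fold). Hoxa3, a gene of thymus and parathyroid, had 23 against 0 (at least 7.16-fold), and Hoxd1, which acts in pain-sensing neurons, 20 against 0 (at least 6.22-fold). Hoxc9, which specifies thoracic motor neurons, had 16 against 0. The other 6 (Hoxb2, Hoxb5, Hoxb9, Hoxb13, Hoxd10 and Hoxd11) had 12 to 14 against 0. Only Hoxd8 at 7 dpi had any MEF read in a higher region.

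The lower loci lay closer to the start site than the higher ones. Of the 8 lower loci 7 were centred within 1 kb of the authors' start (87.5%), at a median distance of 626 bp, and of the 22 higher loci 6 (27.3%), at a median of 1362 bp. Over all listed regions of the series, not merged into loci, the shares within 1 kb were 45.8% for lower and 45.5% for higher ones. Their medians were 1092 and 1090 bp. Counted in the same way, without merging, the HOX shares were 82.8% of 29 lower and 26.1% of 23 higher regions. The HOX medians were then 663 and 1363 bp. The lower Hoxd8 locus, at a median of 998 bp, lies just inside that limit. The RefSeq starts used here were the upstream end of the gene span and the start in any promoter window of the gene. From the nearest of these, 6 of 8 lower loci (75.0%) and 8 of 22 higher loci (36.4%) lay within 1 kb. The lower loci of Hoxb3 and Hoxc6 lay more than 2 kb away. Neither gene has a window, so only the span end was used for them. The authors' starts of both genes, nearer to the loci, are also of RefSeq transcripts. Of the lower loci 5 were upstream of the start and 3 downstream, and of the higher ones 10 upstream and 12 downstream. The difference was not tested, since the loci of a cluster are neighbours in 1 library.

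**Figure D5:**
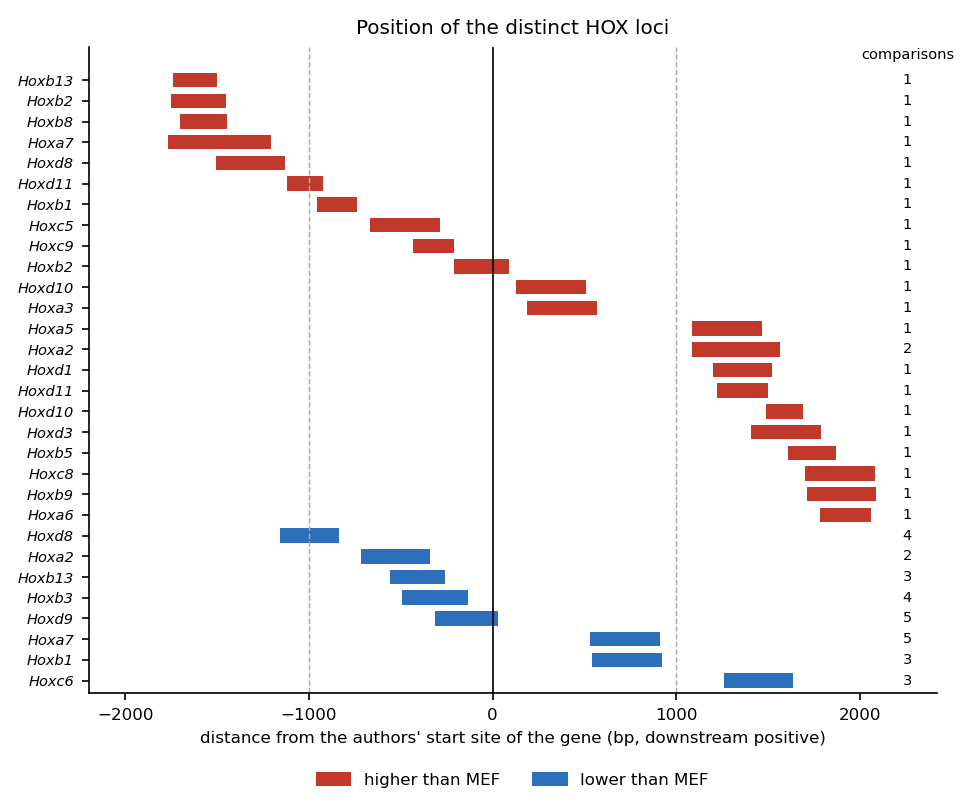
Position of the 22 higher (red) and 8 lower (blue) distinct HOX loci relative to the authors' start site of the gene (x axis, bp, downstream positive), with bars drawn to the width of the locus and the number of comparisons that listed it at the right. Dashed lines mark 1 kb; 7 blue loci and 6 red loci are centred between them.

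In 5 genes a higher and a lower region were listed in the same comparison (12.8%, against 5.81% of all genes): Hoxa2 and Hoxb1 at 3 dpi, Hoxa7 and Hoxd8 at 7 dpi, and Hoxb13 in primary neurons. Hoxb1 at 3 dpi had 11 reads against 0 in MEF at 847 bp upstream, and 0 against 11 within the gene. Hoxb13 in primary neurons had 13 against 0 in MEF at 1620 bp upstream, and 0 against 11 at 410 bp upstream. In all 5 genes the lower region lay nearer the authors' start than the higher one, by 114 bp (Hoxb1) to 1210 bp (Hoxb13). These regions belong to the lower and higher loci whose distances are given above, so this order is not a separate result. How often it holds among all genes with both directions in the same comparison was not computed.

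Peaks are stretches where the authors called captured DNA enriched in 1 library. HOX genes were assigned a peak in the 7 dpi library alone, 5 of 39 (12.8%), against 29.2% of all genes. The count was 0 in primary neurons (against 16.8% of all genes), in MEF (6.9%) and in the libraries of 1 dpi (5.97%), 3 dpi (4.51%) and 5 dpi (11.1%). The 7 dpi library also had the most peaks, 14091 against 1447 to 6636 in the others. The scores are the authors' own.

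The only promoter peak was at Hoxa7, and 1.73% of all genes had one at 7 dpi. In the other libraries no HOX gene had one, against 0.622% of all genes in primary neurons, 0.195% in MEF and 0.24%, 0.107% and 0.461% at 1, 3 and 5 dpi. The Hoxa7 peak was 7.31-fold enriched with 37 tags at its summit, 1452 bp upstream of the start (chromosome 6, 52219915 to 52220394). It shares 426 bp with the region of 29 reads listed as higher at 7 dpi, and ranks 2738 by score. The peaks of Hoxd12, Hoxc6 and Hoxb3 had no listed region under them and ranked 9730 to 12408. Hoxd12, a limb gene, had a peak 2421 bp upstream (4.94-fold). A peak at Hoxc6 that the authors class as intergenic lies inside the RefSeq model of that gene (4.41-fold), and a gene body peak lies in Hoxb3 (4.14-fold). None of the 5 overlapped a peak of another library. The same share over all 7 dpi peaks was not computed. In primary neurons 1 peak lay inside the HOXA cluster, assigned to the antisense transcript 2700086A05Rik (Hoxaas3 in RefSeq) and enriched 4.35-fold. That transcript also had a region of 24 reads in primary neurons against 0 in MEF.

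Of 15 noncoding RNAs of the clusters found in RefSeq, 5 were listed in at least 1 comparison, against 43.5% of all genes. Mir196a-2, in the HOXC cluster, was listed as lower at 3 and 5 dpi and in primary neurons, each with 0 reads against 12 in MEF. Mir196b, in the HOXA cluster, was listed as higher at 7 dpi, with 14 reads against 0 in MEF. Both encode miR-196, a miRNA known to repress HOX mRNAs, and their mature forms share the seed (bases 2 to 8, in capitals) and differ at 1 base outside it. The sequences are from RefSeq, 5′ to 3′, at chr15:102973365-102973386 on the plus strand for miR-196a and chr6:52230129-52230150 on the minus strand for miR-196b (GRCm38.p6).
mmu-miR-196a-5p: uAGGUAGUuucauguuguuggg
mmu-miR-196b-5p: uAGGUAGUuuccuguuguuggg

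Hotair, a noncoding RNA of the HOXC cluster, had a lower region at 3 dpi (0 reads against 13 in MEF) and a higher one at 7 dpi (12 against 0). The antisense transcript 1700109F18Rik of HOXD was lower at 3 dpi (0 against 15).

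The HOX cofactors, homeodomain proteins that bind DNA together with HOX proteins, were listed in 1 comparison. In primary neurons 4 of 9 were higher than MEF, against 20.4% of all genes, the largest such share of the 5 comparisons. They were not tested as a group. The 4 include Meis1 with 18 reads, Pbx4 with 13 and Meis2 with 12, each against 0. A further 31 genes regulate HOX expression or maintain its active or silent state. Of these, 13 were listed in at least 1 comparison, close to the 43.5% of all genes. In primary neurons 6 were higher (against 20.4% of all genes) and 1 lower (against 15.3%). The 7 dpi library had the same counts, against 12.4% and 8.87% of all genes. Earlier libraries had 0 to 1 higher and 1 to 2 lower. Egr2, a hindbrain factor that activates Hoxa2 and Hoxb2, had 0 reads in primary neurons and the libraries of 3, 5 and 7 dpi, each against 13 in MEF. Ezh1, a Polycomb methyltransferase, had 1 read at 1 dpi against 16 in MEF (16-fold lower, interval 2.49 to 671), and 0 at 3 and 5 dpi against 16. At 7 dpi Ezh1 had 2 higher regions upstream, with 20 reads against 1 in MEF (26.5-fold on the scaled values, interval 3.20 to 829) and 10 against 0.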

How the data were processed

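MeDIP-seq was analysed in 6 libraries, 1 per group, grouped by titles and cell type labels. Software named in the submitters' processing notes is CASAVA and Bowtie2 2.1.0, and the build is mm10. Neither the peak caller nor the test with its thresholds is stated in the sources used here. In the promoter tables the deposited values are read counts at 1, 3 and 5 dpi. For 7 dpi and for primary neurons, the deposited values are a signal that the authors scaled, with 1 read worth 1.15 (7 dpi library) against 0.866 (MEF), or 0.966 (primary neurons) against 1.04 (MEF). After division by this worth, 100% of values up to 20 reads came out whole within 0.1. Each deposited row also holds a log2 fold change, a p-value and a q-value. The deposited peak lists give tag counts at the summit, a fold enrichment and the −log10 of a q-value, per the file headers and values.

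Regions of 1 gene that overlap by at least 1 bp were merged into a locus. Intervals are exact Clopper-Pearson 95% intervals of the share of reads, turned into a ratio. Like the floor of 3 reads, they reflect counting error alone. They treat each read as a separate molecule, although PCR copies of a molecule can be counted as several reads. Library totals were not analysed. In every list the higher library had at least 10 reads per region, so most HOX values rest on few reads. All genes means the 26220 with a curated RefSeq transcript (GRCm38.p6). Of the 24 HOX genes, 14 have a promoter window in the RefSeq table used. Positions of genes are RefSeq spans, without exons. Alternatives were a stricter p, an equal read minimum, region width, RefSeq starts, unscaled reads, peak fold, class and number. Step recovery and intervals were tested on simulated data. Python 3.11.15, numpy 2.4.6, pandas 2.3.3, scipy 1.17.1 and matplotlib 3.10.9 were used.

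Members and lists were chosen with earlier results of these data known. Every member with a listed promoter region is named. The values of 1 peak and of 1 cofactor are not reported here. Values stand by region for members listed in at least 2 comparisons or both directions, and for members with a peak, and genes of the 4 other lists are named if listed in at least 3 comparisons. The cofactors, Mir196b, Hotair and the antisense transcripts were named after their values were seen.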

Additional observations from a re-analysis of the deposited data

How the results depend on the processing

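Of the recomputed counts of HOX genes, loci or peaks, 45 stayed within 1.5 times the count reported and 20 did not. The 45 include many counts of 0 that could not change, because the setting only removes entries. The tally is therefore no measure of stability. With p of at most 1e-05 the lower genes numbered 3 in primary neurons, with 1, 3, 2 and 1 in the libraries of 1, 3, 5 and 7 dpi, and the higher genes 4 in primary neurons, 2 at 3 dpi and 3 at 7 dpi. With at least 13 reads in the higher library the lower genes numbered 4 in primary neurons, with 3, 4 and 2 in the libraries of 1, 3 and 5 dpi, and the higher genes 2 at 3 dpi and 3 at 7 dpi. Without regions of 380 bp, the most common width, the higher genes numbered 4 at 7 dpi and 6 in primary neurons, and the lower genes 4 in primary neurons. HOX genes with a peak at 7 dpi numbered 2 with peaks of at least 5-fold, 2 with promoter and gene body peaks alone, and 0 with the 1447 peaks of highest score per library. These settings can remove regions or peaks but add none. Measuring from RefSeq starts used span ends and promoter window starts alone, and counted regions assigned to any gene. It added Hoxa9 at 7 dpi and Hoxb3 in primary neurons to the higher genes. It took Hoxb3 and Hoxc6 from the lower genes. Neither has a promoter window, so their loss rests on the span end alone. At 1, 3, 5 and 7 dpi the lower genes then numbered 4, 6, 3 and 3, against 6, 8, 4 and 3 as reported. In primary neurons they numbered 6 against 8. Distances of loci from RefSeq starts were added after seeing the data. The counts of 0 higher genes at 1 and 5 dpi could have risen only with the RefSeq starts, and were 0 there too. The other settings could not change them. No paired analysis was possible because each group has 1 library, and for the same reason no library could be left out. The fewest reads behind any listed region were 10 to 13, by comparison and direction, so smaller differences cannot be seen in these lists. Whether the authors' cut-off or the depth set this minimum was not tested.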

Other observations

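Among genes that flank the HOX clusters and the related ParaHox genes, 10 of the 18 found in RefSeq were listed in at least 1 comparison, against 43.5% of all genes. Ttll6, a tubulin-modifying gene near HOXB, was lower than MEF in all 5 comparisons at 1 locus. Reads numbered 2 at 1 dpi against 23 in MEF (11.5-fold lower, interval 2.84 to 101), and 3 at 3 dpi against 23 (7.67-fold, interval 2.32 to 39.9). Primary neurons and the libraries of 5 and 7 dpi had 0, each against 23. In primary neurons Ttll6 also had a higher region, with 12 reads against 0 in MEF. Cbx5, which encodes a heterochromatin protein and lies near HOXC, was lower in all 5 comparisons too. Of all genes, 8.65% were lower in at least 4 of the 5. At its locus 536 bp downstream of a start, it had 0 reads in each of the 5 libraries against 14 in MEF.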
